A study of Mus musculus with 4 samples.

Results

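This account covers the first step of differentiation in C2C12 cells, the library taken 60 h after the medium change against the library of growing cells. C2C12 is an immortal mouse skeletal myoblast line that leaves the cell cycle, fuses and forms myotubes when it is crowded and serum is withdrawn. The series holds 4 libraries of polyadenylated RNA, 1 for each time point, and the 2 described here are those labelled -24 h and 60 h. The growth library came from cells in exponential growth in medium with 20% fetal bovine serum. The 60 h library came from cells kept in low serum after they had reached confluence. The labels name no genetic change and no drug, and they give the strain of all libraries as C57BL/6. Time, cell density and serum all differ between the libraries, so their parts cannot be told apart. The line is kept in culture without nerve or other tissue, and the 60 h culture is read as a whole, so more RNA per cell and more cells of 1 kind cannot be told apart either.

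Growing myoblasts copy their DNA, make ribosomes and respond to serum factors through the ERK pathway and through the actin-sensing factors Yap and SRF. On differentiation, MyoD family factors, which bind E-boxes, and Mef2 factors are known to turn on muscle genes. ATF4 is a transcription factor made more efficiently when kinases sense missing amino acids, unfolded protein in the endoplasmic reticulum or other stress. It binds a composite element and drives genes of amino acid supply, among them Asns, Trib3 and Chac1.

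Each gene's value is its FPKM, a read density scaled by transcript length and library size, summed over the transcripts assembled for it. The ± beside a value is the distance to the deposited confidence limit. For a gene with several transcripts it is the root of their summed squared distances, which treats the transcripts as independent. The ± covers counting error and no variation between cultures. In all 12620 of 12955 named genes had a transcript in at least 1 of the 2 libraries. Of these 11244 were assembled in both, 1071 at 60 h alone and 305 in growth alone. The libraries held 28513976 fragments in growth and 48228886 at 60 h, so low genes had more chance of being assembled at 60 h. A gene was called higher or lower by the sum on these conditions. FPKM + 1 had to differ by a factor of 2 or more (a log2 ratio of at least 1 either way), its higher value had to reach 1 FPKM, and its intervals had to be apart. The log2(FPKM + 1) scale understates changes of low genes. A gene is said here to have risen or fallen only where the same call also came from its introns. For each intron the FPKM of the transcripts that hold it were summed, and the median over the gene's introns was taken. For a gene assembled in pieces the sum adds the density of every piece, so it can exceed the value through the introns and shift the ratio. Both measures use the same transcript values. For a gene with 1 multi-exon transcript in each library they are in general equal, so the second adds no check there. With 1 library a side there is no replicate check, no test and no p-value, and every difference is one between these 2 libraries. In each list the 4 largest ratios each way were named by rule, some of them are left out here, and the further genes named for their known roles were chosen after their values were seen.

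By the sum, 1401 genes (11.1%) were higher and 1942 (15.4%) lower at 60 h. By both measures 1028 genes (8.15%) rose and 1154 (9.14%) fell, which is the background against which each gene list below is to be read. Of the genes that rose, 698 were assembled in both libraries, and of those that fell, 1018 were. The median log2 ratio over all compared genes was -0.18. Scaling the libraries to a common median ratio raised that median by 0.25, and 1402 genes were then higher and 765 lower by both measures. The higher share of called genes was 47.1% as deposited and 64.7% with that scaling. Where this scaling turns the balance of a list, the counts are given beside it. Contractile and cell cycle genes are set aside: 59 of 80 sarcomere genes rose and 139 of 216 cell cycle genes fell. Outside these lists, 966 genes rose and 1014 fell.

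**Figure D1:**
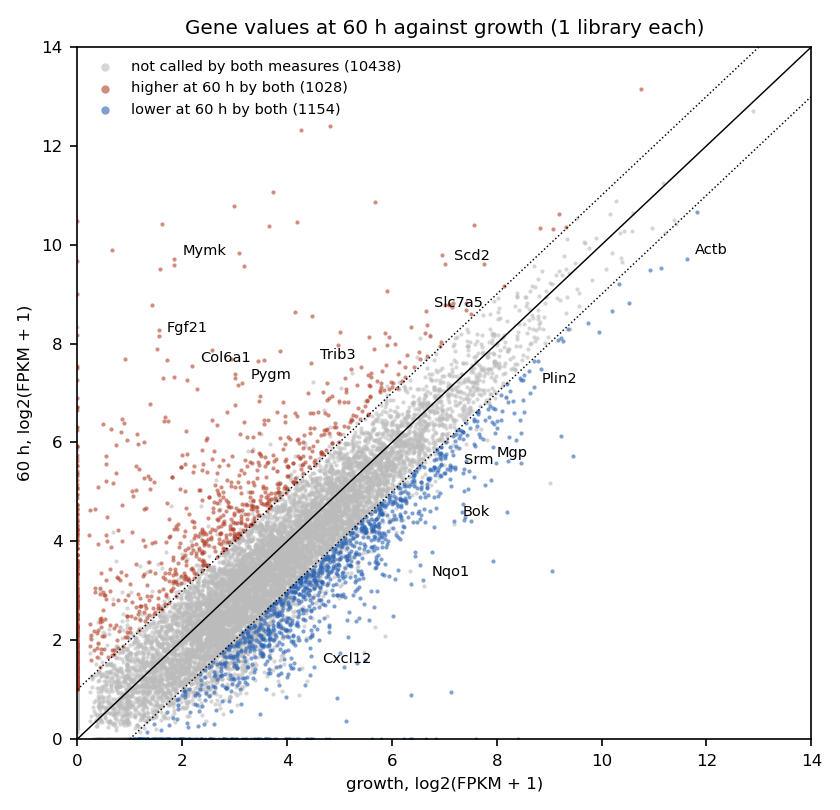
Each point is 1 of 12620 genes, with its summed FPKM in growth on the x axis and at 60 h on the y axis, both as log2(FPKM + 1), and dotted lines at a 2-fold difference. The 1028 genes that rose by both measures and the 1154 that fell lie on either side of the diagonal, and genes assembled in only 1 library lie on an axis.

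Markers of the myoblast lineage were present in both libraries. Of 8 myoblast markers 3 rose and 0 fell. Myod1, the gene of the founding factor of the lineage, had 193 ± 3.86 FPKM in growth and 215 ± 3.1 at 60 h, and Cdh15, the M-cadherin gene, 87.9 ± 2.01 FPKM in growth and 134 ± 1.32 at 60 h. Markers of other lineages ranged from no transcript to high levels. The endothelial gene Cdh5 and the epithelial gene Cdh1 had 0.329 ± 0.329 and 0.25 ± 0.4996 FPKM at 60 h and no transcript in growth. Of 8 compared endothelial and 5 compared leukocyte markers 0 rose and 0 fell by both measures, although Vwf, von Willebrand factor, had 5.34 ± 1.29 FPKM at 60 h and no transcript in growth, and Cd68, a macrophage marker, had 0.308 ± 0.435 FPKM in growth and 4.15 ± 1.51 at 60 h. Of 9 nerve markers 4 fell, among them Stmn2, a microtubule regulator, from 117 ± 2.83 to 42.4 ± 1.34 FPKM, and Uchl1, a deubiquitinase, from 15.3 ± 1.45 to 1.51 ± 0.353 FPKM. Of 9 epithelial markers 2 rose, Trp63 and Lamb3, and Krt14 fell, although it shares over 10% of its words with other genes and its value is uncertain. Among 8 bone and cartilage markers 4 fell and none rose, with Dlx3, a homeobox gene, going from 23.3 ± 1.1 to 4.27 ± 0.372 FPKM. Of 16 smooth muscle and pericyte markers 4 rose and 3 fell (1 and 3 under a 4-fold rule), and Acta2, the smooth muscle actin gene, had 1553 ± 10.5 FPKM in growth and 1592 ± 8.11 at 60 h. Of 5 adipocyte markers 2 rose and 1 fell.

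Among genes outside the contractile and cell cycle lists, the largest ratios upward were those of Ckm, Mymk, Atp2a1, Cox6a2, Mymx, Mb, Fgf21, Casq2, Cav3, Tmem9, Sgca, Hrc, Hfe2, Col6a1 and Srl. Most of these encode proteins of muscle energy supply, the calcium store or the surface membrane. Fgf21, which encodes a secreted hormone of the fibroblast growth factor family, had another role: it went from 1.93 ± 1.04 to 283 ± 5.07 FPKM, a log2 ratio of 6.60 on the log2(FPKM + 1) scale. Hfe2, now called Hjv, encodes hemojuvelin, a BMP co-receptor that sets iron balance, and went from 0.776 ± 0.55 to 72.7 ± 4.08 FPKM. Tmem9, a lysosomal membrane protein gene, went from 0.566 ± 0.653 to 76 ± 4.72 FPKM, and Srl, the gene of the calcium-binding protein sarcalumenin, from 4.97 ± 0.431 to 234 ± 5.68 FPKM.

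The largest ratios downward were those of Prl2c2, Id3, Car8, Ube2f, Dynap, Rasl11a, Tinagl1, Fam19a5, Tagln, Prl2c5, Id1, Cthrc1, Nqo1, Ltbp1 and Selp. Prl2c2 and Prl2c5, growth-associated proliferin genes, share over 10% of their 50-base words with other genes, so fragments could be split between copies and their values are uncertain. Car8, which encodes a carbonic anhydrase relative without catalytic activity, went from 81.9 ± 5.82 to 0.866 ± 0.41 FPKM, a log2 ratio of -5.47. Dynap, the gene of a membrane protein of the Golgi, went from 242 ± 4.89 to 11.2 ± 0.806 FPKM. Cthrc1, a secreted collagen-repeat protein gene, went from 63.7 ± 2.78 to 4.61 ± 0.594 FPKM, and Selp, the gene of the adhesion receptor P-selectin, from 19.2 ± 0.872 to 1.12 ± 0.995 FPKM, log2 ratios of -3.53 and -3.25.

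Genes with a summed value in only 1 of the libraries have no fold by the sum. Among those with the highest values at 60 h were Gabarap, Rps20, Jsrp1, Ccdc124, Scd3, Dhrs7c, Cox8b and Rps16, and in growth Tnfrsf12a, Prl2c3, Ndufa5, Rpl36al, Mta2, Rpl18 and Ahnak2. Through their introns 3 of these were seen in both libraries: Gabarap at 76.6 FPKM in growth and 186 at 60 h, Mta2 at 82.8 and 29.7, and Tnfrsf12a at 340.0 and 47.9. Scd3, a stearoyl-CoA desaturase gene, had 104 ± 5.39 FPKM at 60 h. Ribosomal protein and ubiquitous genes such as Rps20, Rpl18 and Ndufa5 stand in this group too, and a transcript can be missing because it was not assembled. Ndufa5 was assembled again at 120 h at 109.8 ± 10.03 FPKM. Prl2c3, Rpl36al and Rps16 share over 10% of their words with other genes, so their values are uncertain.

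Amino acid stress genes rose at a higher share than the members of any other list tried but the contractile one. Of 56 compared members 27 rose and 0 fell (48.2% against 8.15% of all genes), with a median log2 ratio of 0.98. The lists were drawn up with earlier results of these data known, among them the rise of Trib3 and Atf3. The count and its rank among the lists are therefore a description and no independent support. None fell under any setting tried. Transcripts of Atf4 itself had 442 ± 6.45 FPKM in growth and 629 ± 5.25 at 60 h, which is under the 2-fold limit.

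Genes of the stress branch of the list rose. Atf3, a transcription factor induced by ATF4, went from 3.64 ± 1.84 to 41.5 ± 1.35 FPKM. Ddit3, which encodes the factor CHOP, went from 11.4 ± 1.77 to 87.2 ± 3.03 FPKM, and Atf5, another factor of the family, from 171 ± 3.93 to 407 ± 4.38 FPKM. Trib3, a pseudokinase that feeds back on ATF4 and AKT, went from 21.1 ± 1.2 to 194 ± 2.68 FPKM. Ppp1r15a, whose product GADD34 removes the phosphate from eIF2alpha, went from 14.1 ± 0.933 to 112 ± 2.000 FPKM. Thus effectors, feedback genes and transcription factors of the response all stood apart from their growth values. Chac1, which degrades glutathione, went from 45.4 ± 1.98 to 163 ± 2.83 FPKM, and Sesn2 and Ddit4, which both restrain mTORC1, went from 15 ± 0.769 to 45.2 ± 1.04 FPKM and from 47.4 ± 1.93 to 160.4 ± 2.69 FPKM. Ndrg1, a stress-responsive gene of growth arrest, went from 10.1 ± 0.698 to 121 ± 1.85 FPKM. Cdsn, the gene of the skin adhesion protein corneodesmosin, went from 1.17 ± 0.626 to 44.7 ± 1.22 FPKM. The log2 ratios were 3.20 for Atf3, 2.83 for Ddit3, 3.14 for Trib3, 2.90 for Ppp1r15a, 3.45 for Ndrg1 and 4.40 for Cdsn, and the intervals of the libraries were apart in each.

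So did genes of amino acid supply. Slc7a5 and Slc3a2 encode the light and heavy chain of the large neutral amino acid transporter, and went from 99.6 ± 2.72 to 402 ± 4.65 FPKM and from 135 ± 4.5 to 439 ± 4.35 FPKM. Slc6a9, a glycine transporter gene, went from 8.43 ± 0.625 to 68.3 ± 1.22 FPKM, and Slc1a4, a neutral amino acid carrier gene, from 16.3 ± 0.763 to 46.8 ± 0.992 FPKM. Carriers of different families thus rose side by side. Asns, asparagine synthetase, went from 98.1 ± 5.72 to 297 ± 9.29 FPKM, Cth, the cystathionine lyase that yields cysteine, from 11.2 ± 1.02 to 47 ± 1.54 FPKM, and Gpt2, a mitochondrial alanine transaminase, from 21.5 ± 0.903 to 95.3 ± 1.49 FPKM. Proline synthesis genes Aldh18a1 and Pycr1 went from 46.8 ± 2.4 to 123 ± 4.44 FPKM and from 11.1 ± 1.02 to 28.7 ± 1.31 FPKM. In contrast to Psph, the last enzyme of serine synthesis, from 54.7 ± 2.66 to 139 ± 5.41 FPKM, the first enzymes Phgdh and Psat1 had 157 ± 6.45 FPKM in growth and 131 ± 10.9 at 60 h and 230.1 ± 3.52 FPKM in growth and 259.8 ± 2.82 at 60 h. Neither passed the 2-fold limit, and Phgdh shares over 10% of its words with other genes.

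Of the 27 listed genes that rose, 21 had a lower value at 120 h than at 60 h, and 21 had a lower value at 168 h. Over all 1028 genes that rose, 371 were lower at 120 h and 452 at 168 h. Fgf21 had 262 ± 6.94 FPKM at 120 h and 138 ± 3.76 at 168 h, and Cth had 22.3 ± 1.54 and 14.1 ± 0.901. Psph at 168 h, 31 ± 1.47 FPKM, lay below its growth value. Ddit3 and Pck2 went the other way, to 181 ± 5.55 and 184 ± 2.59 FPKM at 168 h. Cdsn was higher still, at 68.5 ± 2.89 FPKM at 120 h and 83.3 ± 1.71 at 168 h.

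**Figure D2:**
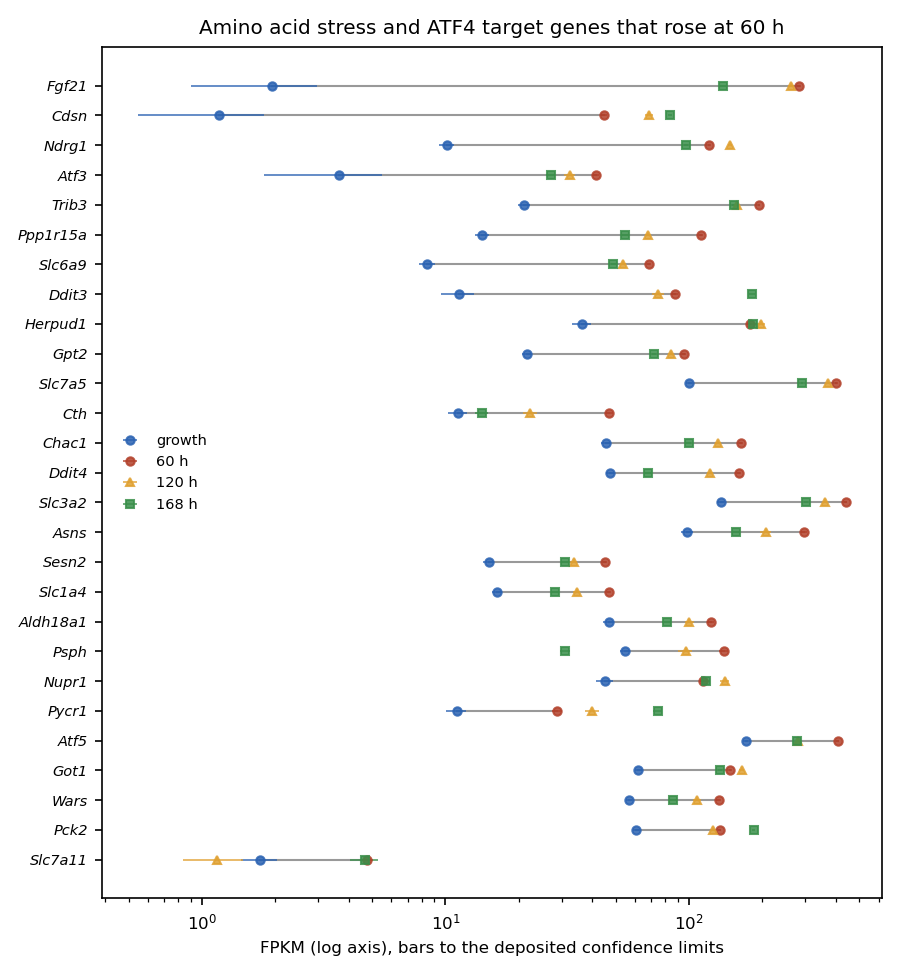
FPKM on a log axis for the 27 amino acid stress and ATF4 target genes that rose, with 1 point per library. Bars reach the deposited confidence limits, combined over transcripts where a gene had several. Growth values lie to the left of the 60 h values in all 27, and for Psph and Slc7a11 a later library lies below growth.

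The composite element bound by ATF4, searched as TGATGCAA on both strands (TTGCATCA on the other), was rare in promoters. Promoters were taken as 300 bases, 250 before and 50 after a RefSeq start of the GRCm38.p6 build, and 9870 of the compared genes had 1 or more, 12707 promoters in all. The element stood in 86 of them (0.677%). Among promoters of genes that rose it stood in 27 of 1047 (2.58%), and among those of genes that fell in 1 of 1125 (0.0889%). The 27 promoters belonged to 25 of 771 genes, and 1 site can be counted again where promoters of a gene overlap. By the sum alone the shares were 2.1% and 0.207%. Within the amino acid stress list, 9 of 27 promoters of genes that rose held it, and 4 of 31 of genes that were not called. Since known targets of ATF4 were chosen for the list, its share describes that choice as well. Without the list, 18 of 1020 promoters of genes that rose held the element, or 16 of 748 genes. A match is a run of letters and no evidence of binding.

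The 9 listed genes with a match are shown because no other list but the contractile one had so high a share of members that rose. Each line gives up to 12 bases on either side of the element, read 5′ to 3′ on the gene's strand, with the element in capitals.
Atf3: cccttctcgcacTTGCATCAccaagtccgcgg
Chac1: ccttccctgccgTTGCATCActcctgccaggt
Fgf21: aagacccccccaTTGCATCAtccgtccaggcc
Got1: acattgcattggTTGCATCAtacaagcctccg
Herpud1: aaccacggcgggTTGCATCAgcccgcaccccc
Nupr1: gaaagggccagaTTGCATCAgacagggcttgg
Pycr1: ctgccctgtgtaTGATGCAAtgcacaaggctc
Slc1a4: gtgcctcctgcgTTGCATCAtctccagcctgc
Slc7a11: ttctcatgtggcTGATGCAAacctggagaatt
In GRCm38.p6 these windows are Atf3 at chr1:191183424-191183455 (-), Chac1 at chr2:119351037-119351068 (+), Fgf21 at chr7:45615610-45615641 (-), Got1 at chr19:43524688-43524719 (-), Herpud1 at chr8:94386305-94386336 (+), Nupr1 at chr7:126625561-126625592 (-), Pycr1 at chr11:120643832-120643863 (-), Slc1a4 at chr11:20332698-20332729 (-) and Slc7a11 at chr3:50443660-50443691 (-). Slc7a11 holds another match close by.

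The 16 genes outside the list that rose and hold the element included Capn3, a muscle protease gene that went from 2.02 ± 0.556 to 10.8 ± 0.841 FPKM, Chchd10, a mitochondrial cristae gene, from 34.7 ± 2.69 to 78.4 ± 2.13 FPKM, and Fbln5, an elastic fibre gene, from 3.97 ± 1.14 to 31.9 ± 3.05 FPKM. Avil, an actin-severing protein gene, and Casz1, a zinc finger factor gene, had no transcript in growth and 24 ± 0.805 and 9.29 ± 0.534 FPKM at 60 h. Most of the 16 had no transcript in growth, the library of lower depth. Some were also low at 60 h, such as Igsf23 at 1.16 ± 0.58 FPKM and Aknad1 at 1.34 ± 0.204 FPKM. The full promoters of Chac1 and Fgf21, with the element and the E-box CAGCTG in capitals, show where both stand.
Chac1: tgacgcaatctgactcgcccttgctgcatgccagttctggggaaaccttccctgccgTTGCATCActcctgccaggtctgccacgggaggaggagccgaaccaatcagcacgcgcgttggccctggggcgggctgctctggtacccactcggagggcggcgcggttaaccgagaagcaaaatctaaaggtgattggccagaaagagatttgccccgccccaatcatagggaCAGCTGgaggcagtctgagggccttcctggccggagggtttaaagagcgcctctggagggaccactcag
Fgf21: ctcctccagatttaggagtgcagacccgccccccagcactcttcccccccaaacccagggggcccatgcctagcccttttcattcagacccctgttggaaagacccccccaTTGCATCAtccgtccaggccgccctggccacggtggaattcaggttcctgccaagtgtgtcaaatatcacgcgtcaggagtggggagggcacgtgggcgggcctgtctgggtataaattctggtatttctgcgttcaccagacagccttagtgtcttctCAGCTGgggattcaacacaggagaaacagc
They lie at chr2:119350992-119351291 (+ strand, Chac1) and chr7:45615441-45615740 (- strand, Fgf21) of GRCm38.p6, from RefSeq.

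Protein-folding genes moved both ways. Of 117 genes of folding and secretion in the endoplasmic reticulum 8 rose and 10 fell (median log2 ratio -0.26), both near the shares of all genes. With median-ratio scaling 9 rose and 4 fell, and, counting fragments over merged exons, 9 and 8. Under a 4-fold rule 2 rose and 0 fell. The members that fell included luminal chaperones and their partners: Pdia6, a disulfide isomerase gene, from 256 ± 4.26 to 85.2 ± 1.76 FPKM, Manf, a secreted factor of reticulum stress, from 248 ± 6.37 to 101 ± 3.14 FPKM, and Calr, calreticulin, from 656 ± 6.98 to 314 ± 3.71 FPKM. Ssr1, a translocon-associated gene, went from 91.6 ± 4.46 to 21 ± 0.538 FPKM. Those that rose included genes of export and degradation of misfolded protein. Herpud1, which recruits ubiquitin ligases to the reticulum, went from 36.4 ± 3.28 to 177 ± 4.56 FPKM, Derl1, a channel of that export, from 13 ± 3.79 to 97.4 ± 1.74 FPKM, and Sel1l, an adaptor of the ligase, from 11.6 ± 1.92 to 27 ± 2.18 FPKM. Ero1l, the oxidase that feeds disulfide bonds, went from 20.8 ± 1.998 to 72.2 ± 2.51 FPKM, and Atf6, a sensor of unfolded protein, from 11 ± 1.33 to 31.1 ± 2.91 FPKM.

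Of 70 heat shock and chaperone genes 6 rose and 10 fell (median -0.34), or 8 and 3 with median-ratio scaling and 2 and 1 under a 4-fold rule. Small heat shock genes known from muscle were among those that rose: Cryab, alpha-B crystallin, went from 128 ± 4.28 to 439 ± 6.11 FPKM and Hspb2 from 23 ± 2.26 to 96.9 ± 4.45 FPKM. General cytosolic chaperones were among those that fell: Hsp90ab1 went from 1288 ± 35.1 to 588 ± 11.1 FPKM and Dnajb1, a co-chaperone of Hsp70, from 47.9 ± 1.75 to 17.4 ± 0.81 FPKM. Hspb6, also a small heat shock gene, went from 37.2 ± 2.2 to 6.59 ± 0.76 FPKM, so that family did not move as one.

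Several genes of glycogen and glycolysis rose, while both of the named pentose phosphate genes fell. Of 54 members of that list 16 rose and 3 fell (29.6% against 8.15%, median log2 ratio 0.24). Pygm, muscle glycogen phosphorylase, went from 7.87 ± 2.97 to 146 ± 2.05 FPKM (log2 ratio 4.06), Gys1, glycogen synthase, from 20.8 ± 0.872 to 95.8 ± 3.03 FPKM, and Stbd1, a glycogen-binding adaptor, from 39.3 ± 1.69 to 141 ± 2.44 FPKM. Enzymes that build and that break glycogen thus rose together. Pfkm, the muscle phosphofructokinase, went from 31.1 ± 4.49 to 299 ± 8.65 FPKM, and Pgam2, the muscle phosphoglycerate mutase, from 3.29 ± 0.667 to 53.8 ± 1.14 FPKM. Hk2, hexokinase 2, went from 11.1 ± 0.532 to 32.7 ± 0.703 FPKM. The oxidative enzymes of the pentose phosphate pathway, which yield NADPH, went down: G6pdx from 70.5 ± 1.93 to 28.1 ± 0.976 FPKM and Pgd from 272 ± 4.17 to 99.1 ± 1.85 FPKM.

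Several lipid synthesis genes rose. Of 69 members 9 rose and 1 fell (13%, median 0.35), or 15 and 1 with median-ratio scaling. Scd1 and Scd2, stearoyl-CoA desaturases, went from 46.3 ± 1.15 to 278 ± 2.17 FPKM and from 129 ± 3.51 to 782 ± 9.79 FPKM. Fdft1, squalene synthase, went from 81.7 ± 4.49 to 324 ± 7.91 FPKM by the sum, but from 46.9 to 95 FPKM through its introns. Dhcr7, the last step to cholesterol, went from 21.8 ± 1.13 to 77.4 ± 1.62 FPKM, and Srebf1, the gene of a sterol-sensing factor, from 36.4 ± 5.83 to 86.5 ± 4.27 FPKM. Npc2, which carries cholesterol out of lysosomes, fell from 397 ± 6.41 to 127 ± 1.81 FPKM. On the side of fat use, genes moved both ways. Cpt1a, which admits fatty acids to mitochondria, fell from 50.7 ± 1.67 to 11.3 ± 0.964 FPKM. Plin2, a lipid droplet coat gene, fell from 415 ± 5.78 to 139 ± 3.21 FPKM, and Pdk4, which blocks pyruvate entry, from 32.6 ± 1.13 to 6.63 ± 0.57 FPKM. Pdk2, a kinase with the same substrate, rose from 3.31 ± 0.659 to 13.6 ± 0.605 FPKM. Of 96 genes of the citric acid cycle and fatty acid oxidation 11 rose and 10 fell (median 0.09), 15 and 6 with median-ratio scaling and 1 and 3 under a 4-fold rule. Among those that rose, Acsl3 went from 19.1 ± 2.32 to 69.7 ± 3.44 FPKM and Acsl6 from 0.468 ± 0.935 to 16.4 ± 2.07 FPKM. Of 83 respiratory chain genes 6 rose and 4 fell (median 0.18), which is no more than the share of all genes. Of those that rose, Cox6a2, Cox8b and Cox7a1 encode muscle forms of cytochrome oxidase subunits, and Cox7a1 went from 1.74 ± 0.559 to 35.6 ± 2.37 FPKM. Ucp2, an uncoupling protein gene, went from 46.8 ± 2.03 to 141 ± 2.52 FPKM.

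**Figure D3:**
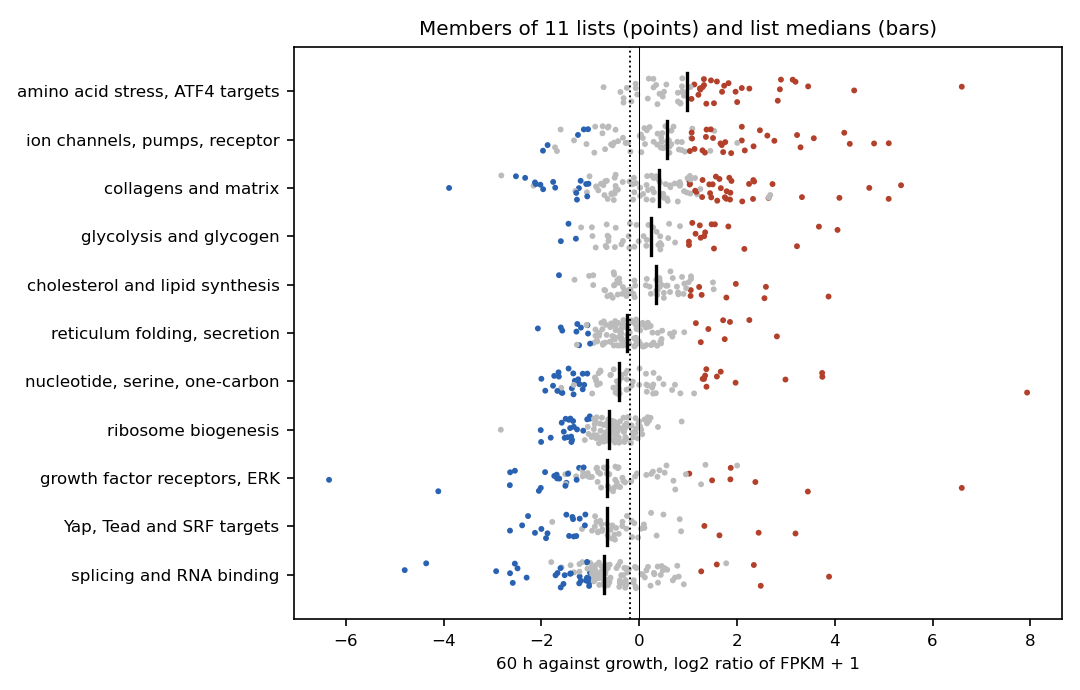
Log2 ratio of FPKM + 1 (60 h against growth, x axis) for each member of 11 lists, coloured red where it rose and blue where it fell by both measures, with a bar at each list's median and a dotted line at the all-gene median of -0.18. The amino acid stress list has its median at 0.98 with no blue point, and the ribosome biogenesis list its median at -0.62 with no red point.

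Members of the nucleotide, serine and one-carbon synthesis list, which also held creatine genes, moved both ways. The list had 12 of 81 members up and 21 down (median -0.42), 13 and 10 with median-ratio scaling and 4 and 0 under a 4-fold rule. Those 4 were Ckm, Adssl1, Ckmt2 and Ckb, and all but Adssl1 encode creatine kinases. For pyrimidines, Ctps, CTP synthase, went from 83.5 ± 4.59 to 20.1 ± 0.788 FPKM, Umps, which makes UMP, from 47.4 ± 1.38 to 15.3 ± 0.64 FPKM, and Cad, the enzyme of the first steps, from 44.2 ± 0.925 to 17.1 ± 0.442 FPKM. Through its introns Ctps went from 48.6 to 20.1 FPKM. For purines, Ppat, the committing enzyme, went from 13.7 ± 0.744 to 3.88 ± 0.302 FPKM and Gart from 71.8 ± 2.42 to 27.6 ± 5.19 FPKM. Srm, spermidine synthase, went from 147 ± 3.9 to 43.4 ± 1.63 FPKM. Among those that rose, Ckb, the brain form of creatine kinase, went from 30.4 ± 2.57 to 249 ± 5.48 FPKM, although it shares over 10% of its words with other genes. Adssl1, the muscle adenylosuccinate synthase, went from 7.1 ± 0.751 to 108 ± 2.13 FPKM. Gamt, which methylates guanidinoacetate to creatine, went from 29.6 ± 2.08 to 78.5 ± 2.52 FPKM. Of 69 solute carriers 16 rose and 7 fell (median 0.04), or 18 and 4 with median-ratio scaling. Besides the amino acid carriers above, Slc40a1, the iron exporter ferroportin, rose from 3.17 ± 1.001 to 17.5 ± 1.4 FPKM, and Slc25a10, a mitochondrial dicarboxylate carrier, fell from 97.1 ± 2.52 to 24.2 ± 0.973 FPKM.

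Among genes of ribosome assembly some fell and none rose. Of 116 members 21 fell (18.1% against 9.14%, median -0.62). None of them rose under any setting, and between 1 and 22 fell, fewest under the 4-fold rule. Imp4, a processome subunit, went from 38.5 ± 1.79 to 8.83 ± 0.343 FPKM, and Grwd1, an assembly factor of the large subunit, from 77.8 ± 2.37 to 21.4 ± 0.93 FPKM. Polr1e, a subunit of RNA polymerase I, went from 23.7 ± 1.43 to 7.48 ± 0.498 FPKM. Fbl, fibrillarin, went from 52.6 ± 3.85 to 12.3 ± 1.18 FPKM, but shares over 10% of its words with other genes. Of 72 tRNA synthetases and translation factors 2 rose, Wars and Lars, and 2 fell, Eif5a and Eif5a2 (median -0.22), or 9 and 0 with median-ratio scaling. Wars, tryptophanyl-tRNA synthetase, went from 56.7 ± 1.69 to 132 ± 3.26 FPKM, and Eif5a, an elongation factor, from 615 ± 18.9 to 263 ± 11.4 FPKM.

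More splicing factor genes fell than rose. Of 127 splicing and RNA-binding genes 5 rose and 29 fell (22.8% against 9.14%, median -0.71), or 6 and 16 with median-ratio scaling. Snrpd3, a core protein of spliceosomal particles, went from 235 ± 6.26 to 36.8 ± 1.09 FPKM, Lsm3, of the U6 particle, from 121 ± 4.95 to 39 ± 2.2 FPKM, and Ptbp1, a repressor of exons, from 137 ± 5.22 to 44.5 ± 5.76 FPKM. Srsf10, an SR-type splicing factor, went from 26.9 ± 2.98 to 3.96 ± 0.491 FPKM. These are parts of the general machinery and regulators alike. U2af1 and U2af2 fell too but share over 10% of their words with other genes. Among the genes that rose, Zfp36l1, which destabilizes AU-rich mRNA, went from 2.74 ± 0.431 to 18 ± 0.789 FPKM, Rbm38, a regulator of the Cdkn1a message, from 18.8 ± 1.34 to 58.6 ± 6.14 FPKM, and Msi2, a Musashi protein gene, from 20.7 ± 2.45 to 51.2 ± 2.58 FPKM.

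Of 35 long noncoding and snoRNA host genes 6 rose and 2 fell (median -0.26). Mrln, whose RNA encodes the micropeptide myoregulin, an inhibitor of the calcium pump, went from 1.79 ± 0.822 to 14.8 ± 1.67 FPKM, and Dancr fell from 5.38 ± 1.15 to 1.32 ± 0.327 FPKM. Of 30 imprinted genes 6 rose and 1 fell (median 0.11), and Cdkn1c, an inhibitor of cyclin-dependent kinases, went from 5.89 ± 2.05 to 13.6 ± 1.86 FPKM. Peg10, a gene of retroviral origin, fell from 8.83 ± 1.64 to 2.6 ± 0.42 FPKM.

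Several oxidant defence genes fell. The list of p53 targets, apoptosis and oxidant defence had 13 of 97 members up and 21 down (median -0.13), or 18 and 15 with median-ratio scaling. Nqo1 (chromosome 8, 109912146 to 109927142 in the files, build not given in the sources used here), a quinone reductase and a standard target of the factor Nrf2, went from 96.1 ± 2.61 to 8.32 ± 0.664 FPKM. Further known Nrf2 targets of the list fell. Gclm and Gclc, the subunits of the enzyme that limits glutathione synthesis, went from 39.5 ± 3.08 to 7.17 ± 0.684 FPKM and from 23.1 ± 1.03 to 8.25 ± 0.472 FPKM. The log2 ratios were -3.38 for Nqo1, -2.31 for Gclm and -1.38 for Gclc. Gsr, glutathione reductase, went from 50.3 ± 2.19 to 10.1 ± 0.745 FPKM, Txnrd1, thioredoxin reductase, from 121 ± 7.74 to 46.5 ± 4.73 FPKM, and Hmox1, heme oxygenase, from 192 ± 4.07 to 60.3 ± 1.77 FPKM. Slc7a11, a cystine carrier that Nrf2 and ATF4 are both known to drive, rose from 1.74 ± 0.289 to 4.75 ± 0.297 FPKM. Sod3, the extracellular superoxide dismutase, rose from 2.91 ± 0.501 to 14.6 ± 0.851 FPKM, and Gpx4, which repairs lipid peroxides, from 58.4 ± 2.02 to 189 ± 7.01 FPKM, with over 10% of its words shared with other genes. Of p53 and death genes, Bok, a BCL2 relative, fell from 144 ± 3.74 to 20.4 ± 1.06 FPKM, while Bbc3, the death protein PUMA, rose from 4.45 ± 0.8998 to 15.2 ± 1.63 FPKM and Eda2r, a receptor and p53 target, from 5.996 ± 0.729 to 20.2 ± 1.11 FPKM. Trp53 itself fell from 86.8 ± 4.68 to 42.4 ± 2.35 FPKM. Trp53inp2, which shuttles to autophagosomes, rose from 10.8 ± 0.62 to 82 ± 5.39 FPKM.

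More genes of mitogen signalling and its feedback fell than rose. Of 78 growth factor receptor and ERK feedback genes 7 rose and 18 fell (23.1% against 9.14%, median -0.67). Among the ligands, Ereg, epiregulin, went from 5.81 ± 1.23 to 1.12 ± 0.316 FPKM, and Hgf, hepatocyte growth factor, from 8.01 ± 1.75 to 1.37 ± 0.596 FPKM. Among the receptors, Axl went from 202 ± 13.8 to 71 ± 6.93 FPKM, Epha2, an ephrin receptor, from 96.6 ± 1.86 to 30.4 ± 0.799 FPKM, and Met, the receptor of Hgf, from 8.96 ± 1.45 to 3.25 ± 1.01 FPKM. Feedback genes were among those that fell. Dusp4, Dusp5 and Dusp6, phosphatases that ERK induces and that act on it, went from 72.5 ± 1.45 to 17.2 ± 1.15 FPKM, from 17.8 ± 1.03 to 4.82 ± 0.63 FPKM and from 26.4 ± 1.13 to 11.4 ± 0.564 FPKM, log2 ratios of -2.02, -1.69 and -1.14. Etv4, a factor downstream of ERK, went from 45.5 ± 7.18 to 12.9 ± 1.31 FPKM, and Spry4, an inhibitor of the pathway, from 9.46 ± 0.531 to 2.67 ± 0.219 FPKM. Errfi1, which blocks the EGF receptor family, went from 85.7 ± 1.99 to 12.8 ± 1.52 FPKM. Against this, Erbb3, a neuregulin receptor, rose from 0.476 ± 0.55 to 15.1 ± 0.534 FPKM, and Fgf9 from 0.243 ± 0.281 to 3.55 ± 0.389 FPKM.

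More of the listed targets of the actin-sensing factors fell than rose, too. Of 57 Yap, Tead and SRF targets 4 rose and 16 fell (28.1% against 9.14%, median -0.66). This count covers the list alone, and 59 of 80 sarcomere genes, set aside here, rose. Actb, beta-actin and an SRF target, went from 3162 ± 18.2 to 842 ± 6.84 FPKM, Cnn2, calponin 2, from 350.4 ± 5.31 to 71.6 ± 1.81 FPKM, and Ccn2, a matricellular protein gene, from 40.4 ± 1.52 to 8.44 ± 0.922 FPKM. The gene of the factor itself, Srf, went from 52 ± 1.35 to 19.5 ± 0.64 FPKM. Enah, an actin filament elongator, rose from 8.21 ± 1.29 to 49 ± 2.81 FPKM, and Vgll2, a Tead partner of muscle, from 2.76 ± 1.38 to 10.7 ± 1.79 FPKM.

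The TGF-beta and BMP list moved both ways. Of 49 members 7 rose and 9 fell (median -0.25), or 10 and 7 with median-ratio scaling. Among ligands and their carriers, Tgfb3 rose from 10.9 ± 0.876 to 50.8 ± 1.05 FPKM, and Inhba, an activin subunit, fell from 15.6 ± 1.02 to 3.64 ± 0.274 FPKM. Ltbp1, which holds latent TGF-beta in the matrix, fell from 31.3 ± 1.76 to 2.34 ± 0.586 FPKM. On the receiving side Tgfbr2, a receptor, rose from 13.4 ± 0.638 to 34.7 ± 3.13 FPKM, as did Smad3, its transducer, from 5.4 ± 0.384 to 18.6 ± 0.542 FPKM. Rgma, a BMP co-receptor, rose from 2.39 ± 0.765 to 16.3 ± 1.61 FPKM. Inhibitors moved both ways. Fst, follistatin, which traps activins and BMPs, rose from 6.7 ± 1.12 to 51.6 ± 1.84 FPKM. Smad6 and Smad7, which block the receptors, went from 11.2 ± 1.01 to 1.03 ± 0.282 FPKM and from 12.3 ± 0.786 to 5.53 ± 0.404 FPKM, and Grem1, a BMP antagonist, from 70.4 ± 2.23 to 15.6 ± 0.808 FPKM.

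Of 28 Notch pathway genes 7 rose and 1 fell (25% against 8.15%, median 0.17). The receptors Notch3 and Notch1 went from 10.4 ± 0.428 to 51.6 ± 0.729 FPKM and from 3.51 ± 0.249 to 9.82 ± 0.305 FPKM. Psen2 encodes a catalytic subunit of the protease that releases the Notch tail, and went from 2.7 ± 0.956 to 18.7 ± 0.868 FPKM. Heyl, a target, rose from 6.95 ± 2.11 to 22.1 ± 0.655 FPKM, and Numbl, an inhibitor, from 7.64 ± 0.639 to 33.3 ± 1.7 FPKM. The growth value of Heyl sums 7 transcripts, and through its introns it went from 1.40 to 22.1 FPKM. Lfng, the glycosyltransferase that tunes ligand choice, fell from 13.7 ± 0.912 to 1.79 ± 0.255 FPKM. Aph1a rose by both measures (from 7.51 ± 0.572 to 39.5 ± 3.81 FPKM) but had a log2 ratio of -0.05 over the union of exons, and it shares over 10% of its words with other genes.

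Of 48 Wnt genes 4 rose and 4 fell (median -0.07), or 7 and 3 with median-ratio scaling. Porcn, the acyltransferase that Wnt ligands need for secretion, rose from 4.3 ± 1.07 to 46.2 ± 2.89 FPKM, and Wnt10a, a ligand, from 8.6 ± 0.718 to 22.6 ± 0.885 FPKM, while Lgr6, an R-spondin receptor, fell from 22.7 ± 0.693 to 3.69 ± 0.94 FPKM. Of 59 insulin, mTOR and AMPK genes 4 rose and 2 fell (median 0.20), and 10 rose with multi-exon transcripts alone. Slc2a4, the insulin-regulated glucose transporter, rose from 2.68 ± 1.38 to 8.09 ± 0.506 FPKM, Prkag3, the muscle AMPK subunit, from 4.18 ± 1.55 to 12.9 ± 0.571 FPKM, and Igfbp2, a binding protein of insulin-like growth factors, fell from 129 ± 3.69 to 40.5 ± 1.58 FPKM. Of 69 calcium and cyclic nucleotide signalling genes 8 rose and 4 fell (median -0.08). Camk2a, a calmodulin kinase, rose from 2.91 ± 1.27 to 32.2 ± 2.45 FPKM, Stim1, the store sensor, from 5.33 ± 1.58 to 20.9 ± 2.48 FPKM, and Ppp3ca, a calcineurin subunit, from 10.3 ± 0.753 to 29.4 ± 1.64 FPKM. Ptger4, a prostaglandin receptor, fell from 8.51 ± 1.11 to 1.73 ± 0.501 FPKM.

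Of 82 developmental transcription factor genes 11 rose and 7 fell (median -0.10). Zeb1, a repressor of epithelial genes, rose from 9.96 ± 1.04 to 22.2 ± 1.59 FPKM, and its relative Zeb2, with no transcript in growth, reached 7.35 ± 0.35 FPKM. Mef2a, Tbx15 and Klf4 went from 10.7 ± 1.58 to 32.7 ± 0.943 FPKM, from 4.23 ± 0.397 to 17.4 ± 0.606 FPKM and from 6.59 ± 1.44 to 35.8 ± 1.03 FPKM. Twist2, which blocks MyoD family factors, fell from 38.2 ± 2.02 to 8.02 ± 0.698 FPKM, and Prrx2, a mesenchymal homeobox gene, from 38.7 ± 1.23 to 8.32 ± 0.765 FPKM. Of 49 nuclear receptor and coactivator genes 2 rose, Vdr, the vitamin D receptor, from 2.56 ± 0.288 to 7.29 ± 0.371 FPKM, and Nfil3, a clock-linked repressor, from 15.1 ± 1.04 to 32.7 ± 3.84 FPKM. In the same list 2 fell, Pparg and Nr4a2 (median 0.05).

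Chromatin enzyme genes moved both ways: 8 of 96 rose and 12 fell (median -0.36), or 12 and 10 with median-ratio scaling and 5 and 3 under a 4-fold rule. Ezh2, the Polycomb methyltransferase of dividing cells, fell from 24.3 ± 2.86 to 9.53 ± 1.8 FPKM, and Dnmt1, which copies DNA methylation after replication, from 57.5 ± 7.48 to 16.5 ± 2.78 FPKM. Kdm6b, which removes the Polycomb mark, had no transcript in growth and 20.5 ± 4.18 FPKM at 60 h. Chd3, a remodeller of the NuRD complex, rose from 10.1 ± 2.55 to 53.1 ± 3.33 FPKM, and Hdac11, a deacetylase, from 5.55 ± 1.9 to 23.8 ± 0.867 FPKM. Smarcd1, a SWI/SNF subunit, fell from 38.2 ± 1.44 to 6.97 ± 0.286 FPKM.

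Chemokine and clotting genes moved both ways. Of 63 chemokine and cytokine genes 7 rose and 13 fell (median -0.38), or 9 and 8 with median-ratio scaling. Cxcl12, a chemokine, fell from 21.9 ± 1.4 to 1.74 ± 0.215 FPKM, as did its receptor Cxcr4, from 26.9 ± 5.91 to 3.47 ± 1.46 FPKM. Ccl2, a monocyte attractant, went from 21.2 ± 2.04 to 3.22 ± 0.595 FPKM, and Csf1, the macrophage growth factor, from 102 ± 1.81 to 37.3 ± 1.43 FPKM. Il6st, the shared receptor chain of the interleukin 6 family, rose from 14.8 ± 0.512 to 32.3 ± 0.557 FPKM. Of 35 complement, coagulation and serpin genes 5 rose and 10 fell (28.6% against 9.14%, median -0.07). Parts of the plasminogen system fell: Plau, the activator, went from 88.7 ± 2.31 to 33 ± 1.12 FPKM, and Plaur, its receptor, from 114 ± 3.13 to 24.6 ± 1.62 FPKM. F3, tissue factor, fell from 11.8 ± 0.998 to 2.48 ± 0.35 FPKM, and F2r, the thrombin receptor, from 70.8 ± 1.7 to 24.8 ± 1.35 FPKM. C1qtnf3, a secreted C1q relative, rose from 5.53 ± 0.831 to 44.8 ± 1.22 FPKM. Of 52 interferon and antigen presentation genes 4 rose and 2 fell (median 0.11), and Cd74, the invariant chain, went from 1.39 ± 1.39 to 8.87 ± 1.001 FPKM.

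Many ion channel, pump and acetylcholine receptor genes rose. Of 91 members 29 rose and 5 fell (31.9% against 8.15%, median 0.57). The receptor subunits Chrng and Chrnd, the first of them the embryonic form, went from 3.85 ± 0.925 to 134 ± 1.68 FPKM and from 6.999 ± 1.22 to 157 ± 4.93 FPKM, log2 ratios of 4.80 and 4.31. Chrne, which replaces Chrng in adult muscle, had no transcript in growth and 3.46 ± 0.617 FPKM at 60 h, while Chrng went on to 365 ± 3.61 at 168 h. The voltage sensor of contraction, Cacna1s, went from 0.935 ± 1.32 to 65.6 ± 4.77 FPKM, its partner Stac3 from 3.7 ± 1.13 to 45.2 ± 2.54 FPKM, and its beta subunit Cacnb1 from 8.04 ± 1.07 to 83.7 ± 1.61 FPKM. Tmem38a, a cation channel of the calcium store, went from 9.89 ± 0.808 to 198 ± 2.65 FPKM. Among ion pumps, Atp2b4, a surface calcium pump, went from 2.38 ± 0.272 to 16.1 ± 1.16 FPKM. Fxyd5, a regulator of the sodium pump, fell from 59.4 ± 5.56 to 14.4 ± 1.31 FPKM, and Kcnn4, a calcium-gated potassium channel, from 55.1 ± 1.87 to 22.5 ± 0.973 FPKM.

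The E-box CAGCTG, its own reverse complement, stood in 15.9% of all promoters, 25.4% of those of genes that rose and 13.9% of those of genes that fell. Without the contractile and cell cycle genes the share among genes that rose was 24.5%. Among channel and receptor genes that rose it was 9 of 22 promoters. By gene it was 7 of 19, against 1829 of 9870 over all, since a gene can have several promoters that overlap. The promoter of Chrng is shown because it holds a pair of them.
Chrng: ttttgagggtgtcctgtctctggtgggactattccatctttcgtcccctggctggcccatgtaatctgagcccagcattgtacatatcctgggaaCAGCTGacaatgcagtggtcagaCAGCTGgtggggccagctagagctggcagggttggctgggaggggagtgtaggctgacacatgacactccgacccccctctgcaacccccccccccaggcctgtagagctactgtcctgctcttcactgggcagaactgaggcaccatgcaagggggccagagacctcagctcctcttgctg
It lies at chr1:87205561-87205860 (+ strand) of GRCm38.p6, and each E-box is in capitals.

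The form CACCTG, or CAGGTG on the other strand, stood in 21.6% of promoters of genes that rose, 15.3% of those that fell and 17.7% of all. The TEAD element GGAATG, or CATTCC on the other strand, stood in 17.4%, 12.4% and 12.4%, and the MEF2 core in 5.06%, 2.67% and 3.27%. The AP-1 element TGANTCA gave 8.12%, 6.67% and 5.37%, and the CArG box 2.1%, 1.69% and 1.38%. Contractile genes that rose held the CArG box in 8 of 57 promoters. Without the contractile and cell cycle genes the CArG share among genes that rose was 1.42%, near that of all promoters. The other shares were then 20.6% for CACCTG, 16.7% for TEAD, 4.46% for MEF2 and 8.01% for AP-1. The E2F forms had higher shares among genes that fell. TTTCCCGC (GCGGGAAA) stood in 1.34%, 3.82% and 1.93%, and TTTGGCGC (GCGCCAAA) in 0.478%, 1.78% and 0.921%. Cell cycle genes held 11 of the 43 matches to the first form among promoters of genes that fell, and 9 of 20 to the second. The CCAAT box, ATTGG on the other strand, hardly differed at 37.1%, 38.5% and 37.5%. The CRE, TGACGTCA, gave 2.2%, 3.47% and 2.97%, and the SREBP element 1.53%, 1.96% and 1.98%. The MEF2 core, CArG box and SREBP element were searched as forms with free positions, and forms that overlap were counted for each motif. Base composition differed between the sets: the median number of CpG in a promoter was 13 for genes that rose, 21 for genes that fell and 20 over all, and its part in the motif shares was not tested.

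**Figure D4:**
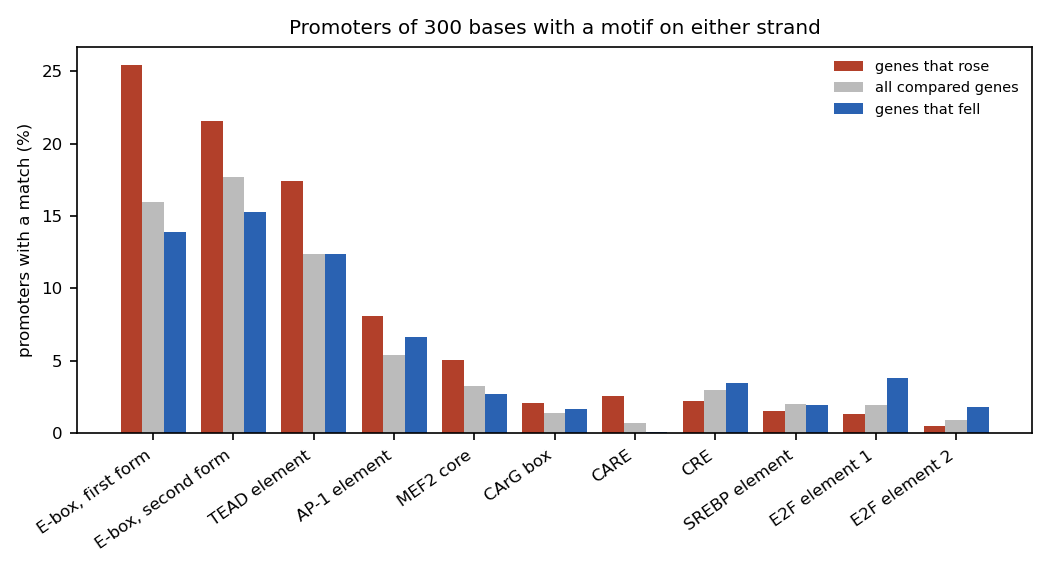
Bars give the percent of promoters with at least 1 match on either strand, for genes that rose, all compared genes and genes that fell by both measures, with the y axis from 0. The first E-box form is CAGCTG (25.4%, 15.9% and 13.9%) and CARE is the ATF4 composite element (2.58%, 0.677% and 0.0889%).

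Several surface membrane genes of muscle rose. Of 69 genes of the dystrophin complex, caveolae, tubules and membrane repair 17 rose and 9 fell (24.6% against 8.15%, median 0.17). The sarcoglycans Sgca and Sgcb went from 0.866 ± 0.408 to 83.3 ± 4.14 FPKM and from 9.74 ± 0.714 to 42.5 ± 1.13 FPKM. Trim72, which seals torn membrane, went from 6.65 ± 2.99 to 204 ± 2.3 FPKM, Dysf, dysferlin, from 16.4 ± 3.45 to 47.2 ± 2.69 FPKM, and Bin1, which bends membrane into tubules, from 135 ± 9.65 to 448 ± 14.9 FPKM. Through its introns Dysf went from 1.52 to 16.4 FPKM. Among the annexins, Anxa1 and Anxa2 fell from 364 ± 5.77 to 97.8 ± 2.18 FPKM and from 1938 ± 13.9 to 714 ± 6.38 FPKM. Enzymes that glycosylate dystroglycan moved both ways. Pomk had a transcript at 60 h alone, with 8.05 ± 0.48 FPKM, and Gmppb fell from 34.5 ± 5.36 to 4.35 ± 0.373 FPKM, or from 15.4 to 4.35 FPKM through its introns.

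Of 83 adhesion and fusion genes 18 rose and 9 fell (21.7% against 8.15%, median -0.03), or 21 and 4 with median-ratio scaling. Besides Mymk and Mymx, Cdh13, a cadherin without a cytoplasmic tail, rose from 9.03 ± 2.33 to 46.7 ± 1.001 FPKM, and Cadm4, an immunoglobulin adhesion gene without a transcript in growth, reached 40.3 ± 1.29 FPKM. Sema3b, a secreted semaphorin, rose from 8.55 ± 0.614 to 35.5 ± 3.14 FPKM. Mcam, an adhesion receptor, fell from 17.7 ± 2.06 to 1.69 ± 0.553 FPKM, and the heparan sulfate carriers Sdc3 and Sdc4 from 51.7 ± 1.23 to 10.7 ± 0.429 FPKM and from 103 ± 2.43 to 38 ± 1.12 FPKM. Of 81 integrin and focal adhesion genes 6 rose and 9 fell (median -0.21), 10 and 5 with median-ratio scaling and 3 and 1 under a 4-fold rule. Itgb1bp2, melusin, a muscle partner of integrin, rose from 1.21 ± 0.885 to 71.1 ± 2.04 FPKM. Lasp1, an actin-binding adaptor, fell from 139.7 ± 3.54 to 33.7 ± 0.892 FPKM, and Itga3, an integrin chain, from 39.1 ± 2.43 to 12.5 ± 0.461 FPKM.

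Of 82 intermediate filament, microtubule and nuclear envelope genes 10 rose and 9 fell (median -0.10), or 8 and 9 among genes assembled in both libraries. Des, desmin, the muscle filament gene, rose from 452 ± 5.46 to 1303 ± 12.6 FPKM, while Vim, vimentin, the filament gene of mesenchymal cells, fell from 3604 ± 16.4 to 1626 ± 8.44 FPKM. Mapre3, a microtubule end-binding gene, rose from 9.15 ± 2.03 to 35.5 ± 2.54 FPKM and its relative Mapre2 fell from 14 ± 0.716 to 5.71 ± 0.943 FPKM. Lmnb1, lamin B1, and Lbr, the lamin B receptor, fell from 71.2 ± 1.81 to 21.6 ± 0.794 FPKM and from 26.3 ± 1.2 to 12 ± 1.76 FPKM.

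Matrix genes rose and fell at shares above those of all genes. Of 121 genes of collagens, matrix proteins and matrix enzymes 34 rose and 16 fell (28.1% and 13.2% against 8.15% and 9.14%, median 0.40), or 38 and 10 with median-ratio scaling. Genes of fibre-forming proteins were among those that rose: Fbn1, fibrillin, went from 17.2 ± 0.933 to 91.6 ± 0.879 FPKM, Fn1, fibronectin, from 215 ± 4.9 to 785 ± 8.66 FPKM, and Col3a1 from 141 ± 1.93 to 427 ± 9.66 FPKM. Tnc, tenascin C, went from 24.9 ± 1.81 to 129 ± 3.33 FPKM, and Sparc, a collagen chaperone, from 578 ± 31.4 to 1581 ± 49.4 FPKM. Enzymes that modify collagen rose with them, P4ha1, a prolyl hydroxylase subunit, from 26.4 ± 2.75 to 93.3 ± 6.93 FPKM, and Loxl1, a cross-linking oxidase, from 5.32 ± 0.635 to 26.2 ± 0.803 FPKM. Mmp2 and Mmp15, matrix proteases, went from 12.4 ± 0.756 to 48.6 ± 1.15 FPKM and from 5.47 ± 0.985 to 29.7 ± 0.695 FPKM. Proteins of other roles were among those that fell. Mgp, which inhibits mineral deposition, went from 300.4 ± 8.51 to 68.6 ± 2.9 FPKM, Timp3, a protease inhibitor, from 49.5 ± 1.23 to 13.9 ± 0.504 FPKM, and Has2, hyaluronan synthase, from 11.8 ± 0.762 to 1.54 ± 0.212 FPKM. Basement membrane genes Tinagl1, Smoc2 and Col4a1 went from 43.7 ± 1.79 to 2.01 ± 0.464 FPKM, from 56.5 ± 3.11 to 9.01 ± 0.522 FPKM and from 50.6 ± 4.16 to 20.9 ± 0.535 FPKM.

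Of 77 ubiquitin ligase genes 10 rose and 1 fell (13% against 8.15%, median 0.15), and 6 rose among genes assembled in both libraries. Asb2, a ligase adaptor that targets filamins, rose from 3.92 ± 1.84 to 16.3 ± 1.53 FPKM, and Fbxo32, the atrophy ligase atrogin-1, from 2.23 ± 0.322 to 6.47 ± 0.3995 FPKM. Skp2, which degrades cell cycle inhibitors, was the member that fell, from 16.4 ± 0.846 to 3.27 ± 0.294 FPKM. Of 42 proteasome genes 1 rose, Psma5, whose value is uncertain because it shares over 10% of its words with other genes, and 1 fell, Psmd11 (median -0.30). Of 101 lysosome and autophagy genes 8 rose and 4 fell (median 0.27), or 20 and 3 with median-ratio scaling. Map1lc3a, an autophagosome protein gene, rose from 47.4 ± 2.67 to 168 ± 5.75 FPKM, Pink1, a sensor of damaged mitochondria, from 7.7 ± 1.46 to 42.3 ± 1.19 FPKM, and Ctsc, a lysosomal protease, from 0.696 ± 0.64 to 8.69 ± 0.846 FPKM. Ctsb, cathepsin B, fell from 458 ± 5.48 to 177 ± 1.75 FPKM. Atp6v1g1, a pump subunit that shares over 10% of its words with other genes, fell from 47.5 ± 2.51 to 21 ± 4.31 FPKM but had a log2 ratio of 0.19 over the union of exons.

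**Figure D5:**
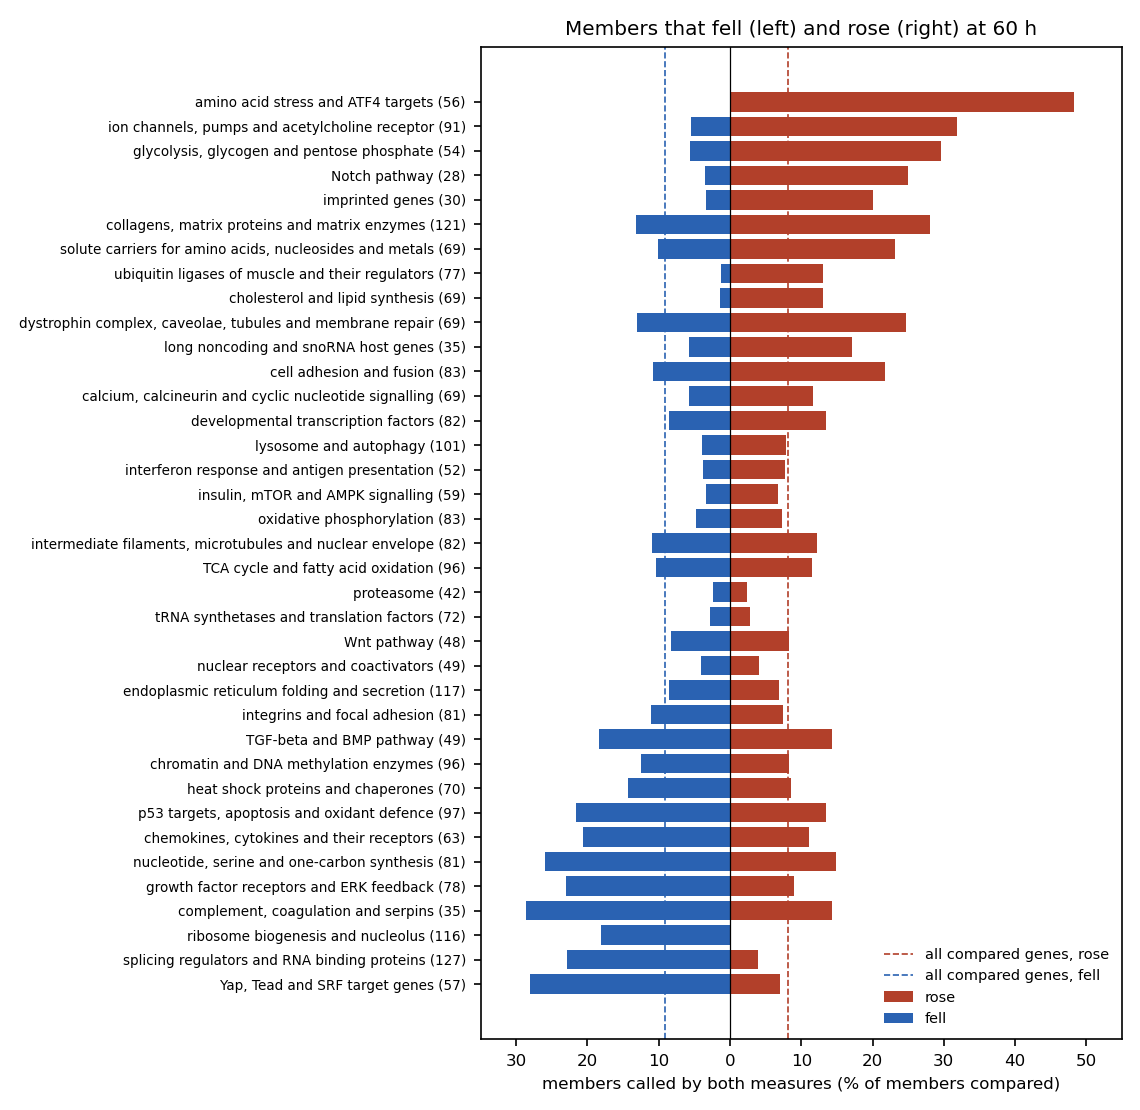
For each list the bars give the percent of compared members (number in brackets) that fell, to the left, and rose, to the right, by both measures, with dashed lines at the 9.14% and 8.15% of all genes. The amino acid stress list reaches 48.2% to the right with no bar to the left, and the ribosome biogenesis list 18.1% to the left with none to the right.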

How the data were processed

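The submitters deposited 1 transcript assembly per library, from paired ends of polyadenylated RNA, and their processing notes name TopHat 1.0.13 and Cufflinks 0.8.0. Those notes assign no step to either tool, and no source used here names a genome build. In each assembly the authors deposited, per the file headers and fields, every transcript with an RPKM value (written FPKM here), confidence limits and exons, an attribute field that is no other number. The growth library held 28513976 fragments and the 60 h library 48228886. These totals were back-calculated from the confidence limits, read as 2 square roots of the fragment count. As a check, 94.3% of low values in growth and 94.4% at 60 h lay within 0.01 of a whole fragment. Transcripts carry no gene names, so introns were matched to GENCODE M21 by runs of intron and exon lengths, which named 12955 genes. FPKM was summed per gene, taken as log2(FPKM + 1), and compared without a test because each time point had 1 library. The median confidence distance was 11.7% of the value in growth and 10.2% at 60 h. The size rule was tested on simulated data. Those data held larger changes than the rule asks for and counting error alone. They had no variation between cultures and no assembly step, so they do not check the calls made here. Members and gene lists were chosen with earlier results of these data known. Of 408 genes followed one by one, 118 were chosen after their values were seen, and a rule gave the others (the 15 largest ratios each way, the highest values in 1 library and the 4 largest each way in each list). Alternatives were another pseudocount, minimum, fold, scaling and measure. Some genes given by the rule are not reported here. Python 3.11.15 with pandas 2.3.3 was used.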

Additional observations from a re-analysis of the deposited data

How the results depend on the processing

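Under the 4-fold rule 506 genes were higher and 305 lower by the sum, and 381 and 194 by both measures. Counting only genes assembled in both libraries left 867 higher by the sum. Fragments over the union of exons left 1292 lower by the sum, and median-ratio scaling left 765 lower by both measures. All other counts of genes, and the promoter motif shares with genes called by the sum alone, stayed within 1.5 times or within their counting interval. Of 398 genes followed one by one and called by both measures, the call was lost for 32 with a minimum of 5 FPKM, 32 with median-ratio scaling, 2 with equal totals, 25 over merged exons, 1 with multi-exon transcripts alone and 207 under the 4-fold rule. Over the union of exons the log2 ratio turned to -0.0507 for Aph1a and 0.190 for Atp6v1g1. The cause was not tested. Of 90 counts of list members that rose or fell, 24 moved by over 1.5 times with median-ratio scaling, 75 under the 4-fold rule and up to 7 under any other setting. Median-ratio scaling multiplied the 60 h values by 1.22. No paired analysis was possible because there was 1 library per time point. Low genes are limited by the lower depth of growth.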
